A study of Mus musculus with 8 samples.

Results

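The genes described here are 9 transcription factors and co-factors of the sine oculis homeobox, eyes absent (Eya) and forkhead (Fox) families that have been linked to the progenitors of the outflow tract and right ventricle: Six2, Six4, Eya1, Eya2, Eya4, Foxc1, Foxc2, Foxf1 and Foxp1. They were taken by name from a table of 20701 gene symbols, and each was read from its most highly counted transcript. The tissue was OFT/RV, the outflow tract together with the right ventricle, dissected from single C57BL/6 mouse embryos at E10.5, and its polyadenylated RNA was sequenced. There were 4 wild-type control embryos (CTRL) and 4 embryos of the Isl1 hypomorph (Isl1_hypo). The hypomorph carried the alleles Isl1-f;neo/f;neo, which lower Isl1 expression in the whole embryo rather than removing it. The comparison asks how these factors stood in tissue derived from the second heart field when Isl1, a LIM-homeodomain transcription factor of that field, was reduced. Libraries held between 29748458 and 46678973 counts in CTRL and between 18422245 and 33050298 in Isl1_hypo.

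The second heart field is a pool of mesodermal progenitors next to the early heart tube, and its cells are added to the outflow tract and right ventricle as the tube grows. Sine oculis proteins such as Six2 and Six4 are homeodomain transcription factors that bind DNA. Eya proteins are co-activators with phosphatase activity that those factors recruit, while Dach proteins act in the same network mostly as co-repressors. Foxc1 and Foxc2 are forkhead factors of cardiac progenitors, pharyngeal mesenchyme and vessels, Foxf1 is a forkhead factor of splanchnic mesoderm that responds to Hedgehog signalling, and Foxp1 is a forkhead repressor of the developing myocardium and endocardium.

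Isl1 itself was measured at 29.6, 61.5, 46.2 and 51.3 CPM, the count per TMM-scaled library size, in the CTRL embryos, listed by replicate number here and throughout. The Isl1_hypo embryos were at 12.7, 6.86, 7.71 and 11.4 CPM. Every Isl1_hypo library was below every CTRL library, and the log2 fold change was −2.29 (SE 0.256, adjusted p = 0.0077). All differences are given as Isl1_hypo against CTRL, from edgeR's quasi-likelihood test with Benjamini-Hochberg adjustment over all genes tested. Isl1_hypo replicate 3 stood apart from the other libraries on the first principal component, at 72.0 against −17.7 to 3.97, and without it the Isl1 fold change was −2.20 (adjusted p = 0.00701).

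No difference between the groups in any of these factors passed this test. Of the 9, 7 had enough counts to be tested and 2, Eya2 and Foxf1, fell below the filter on low counts. No tested member passed an adjusted p of 0.05, against 0.269% of all 13769 genes tested, and none passed an unadjusted p of 0.05, against 11.9% of all genes (5.16% when a fold change beyond 0.58 on the log2 scale was also required). In no tested member were the groups free of overlap, against 8.5% of all genes. Foxc2, Six4, Foxp1, Foxc1 and Six2 had fold changes below 0, as did 49.1% of all genes, and Eya4 and Eya1 above 0, with a median of −0.08 on the log2 scale against 0.01 for all genes. The sign of Eya1 depended on the scaling of the libraries, and those of Six2, Eya1, Eya4 and Foxc1 on single libraries. Without Isl1_hypo replicate 3 the fold changes were −0.05 for Six2, −0.18 for Six4, 0.30 for Eya1, −0.22 for Eya4, 0.04 for Foxc1, −0.16 for Foxc2 and −0.05 for Foxp1, and none passed. A p that misses the threshold does not show that levels were alike, so the interval of each difference is given below.

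**Figure D1:**
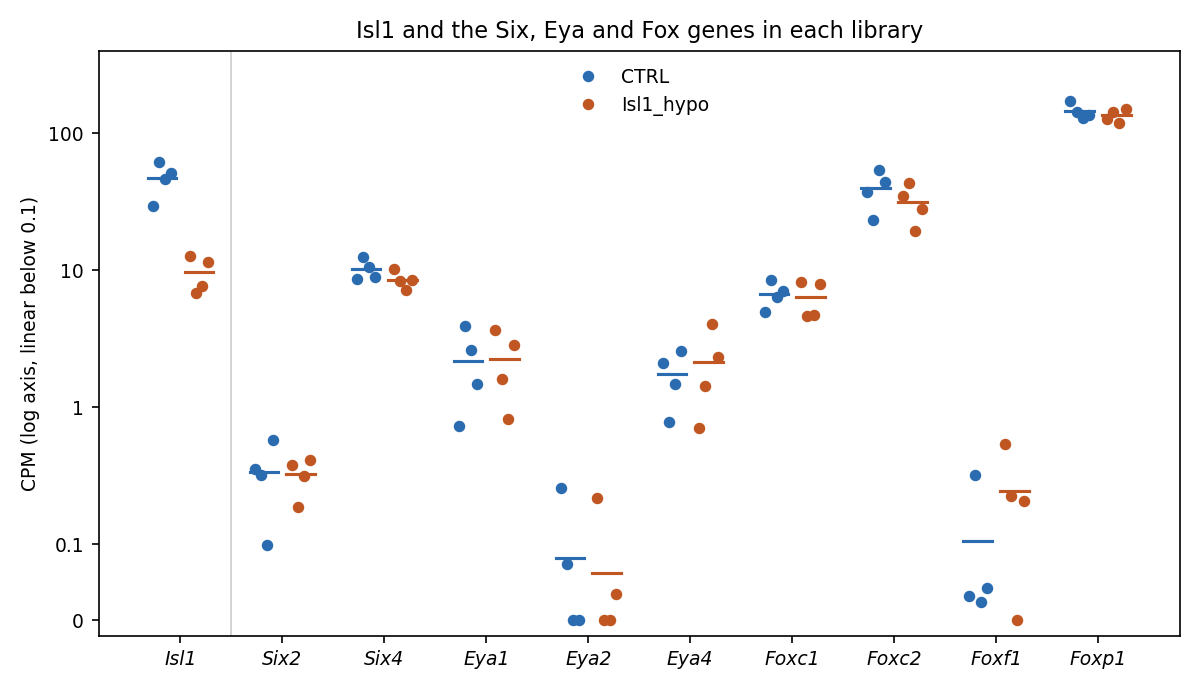
CPM in each library for Isl1 and the 9 sine oculis, Eya and Fox genes, on a log axis that is linear below 0.1. Points are single embryos in order of replicate number, 4 CTRL (blue) and 4 Isl1_hypo (orange), and the short lines are group means. The groups are apart for Isl1 and overlap for each of the 9 genes.

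The members spanned a wide range of levels in this tissue. On the RPKM scale, which divides by transcript length, Foxp1 was the most abundant with a mean of 11.9 over the 8 libraries, followed by Foxc2 at 7.96. Six4 came next at 1.02, with Foxc1 at 1.03 in CTRL and 0.966 in Isl1_hypo, and then Eya1 and Eya4 at 0.313 and 0.219, Six2 at 0.0957, Foxf1 at 0.0438 and Eya2 at 0.0198. Several neighbours in this order were not separated by the spread between libraries. Six4 ranged from 0.754 to 1.38 RPKM and Foxc1 from 0.699 to 1.30, and Eya1 ranged from 0.106 to 0.557 and Eya4 from 0.0810 to 0.447. Foxp1 exceeded Foxc2 in every library except CTRL replicate 3, where Foxc2 stood at 12.0 RPKM and Foxp1 at 10.97. The RNA came from all cells of the dissected tissue, so a change in the number of cells that express a gene and a change in RNA per cell cannot be told apart.

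Of the DNA-binding members Six2 and Six4, Six4 was that with a usable level. Six4 lies on mm9 chromosome 12 from 74201246 to 74214401 on the minus strand and had 272, 511, 422 and 418 counts in CTRL and 189, 221, 226 and 246 in Isl1_hypo. Scaled for depth these were 8.70, 12.6, 10.48 and 8.93 CPM in CTRL, a mean of 10.2 ± 1.78 (SD, n = 4), and 10.3, 8.28, 7.14 and 8.51 CPM in Isl1_hypo, a mean of 8.55 ± 1.29 (SD, n = 4). The lowest value was in Isl1_hypo replicate 3 and the highest in CTRL replicate 2. Isl1_hypo replicates 2, 3 and 4 were below every CTRL library, and Isl1_hypo replicate 1 was within the CTRL range. The Six4 fold change was −0.25 on the log2 scale (SE 0.194, 95% interval −0.68 to 0.17, adjusted p = 0.632), and it was −0.14 without CTRL replicate 2.

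Six2, a factor of early heart field progenitors best known for the renewal of nephron progenitors, was near the lower limit of detection. Its counts were 11, 13, 4 and 27 in CTRL and 7, 5, 10 and 12 in Isl1_hypo, which is at most 0.577 CPM in any library. The CTRL libraries held both the lowest and the highest Six2 level. The interval of the difference ran from −1.60 to 1.48 on the log2 scale, so the direction of any difference was not settled. The parts of low counts and of spread between embryos in that width were not tested.

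A pair of their relatives had few or no reads. Six6, on chromosome 12 as Six4 is, had no read in any library. Six3, the neighbour of Six2 on chromosome 17, had 3 reads in CTRL replicate 1, 3 in Isl1_hypo replicate 4 and none elsewhere.

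The Eya co-activators Eya1 and Eya4 showed large differences between embryos of the same group. Eya1, on chromosome 1 from 14159035 to 14300281, was at 0.736, 3.94, 2.63 and 1.47 CPM in CTRL, a mean of 2.19 ± 1.399 (SD, n = 4), and at 3.69, 1.61, 0.822 and 2.87 CPM in Isl1_hypo, a mean of 2.25 ± 1.28 (SD, n = 4). The highest CTRL library was thus 5.35 times the lowest, and the highest Isl1_hypo library 4.49 times the lowest. Between the groups the log2 fold change was 0.02 (SE 0.581, 95% interval −1.25 to 1.30, adjusted p = 0.991). The within-group SD of log2 CPM was 0.971 for Eya1 against a median of 0.587 for genes of a like level, and 85.2% of those genes had a smaller SD.

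Eya4, an Eya family member with known roles in heart muscle and hearing, lies on chromosome 10 from 22823974 to 23069701 and was at 2.11, 0.787, 1.49 and 2.56 CPM in CTRL and at 0.706, 1.42, 4.05 and 2.32 CPM in Isl1_hypo. Isl1_hypo held both the lowest and the highest Eya4 library, and the means were 1.74 ± 0.772 and 2.12 ± 1.44 CPM (SD, n = 4 each). Its log2 fold change was 0.30 (SE 0.557, 95% interval −0.92 to 1.52, adjusted p = 0.864), and without Isl1_hypo replicate 3 it was −0.22. The within-group SD of log2 CPM of Eya4 was 0.886, against a median of 0.624 for genes of a like level. Of the genes at that level, 76.2% had a smaller SD. In each group the library with the most Eya1 had the least Eya4. The ratio of Eya1 to Eya4 counts was 5 in CTRL replicate 2 and 5.23 in Isl1_hypo replicate 1, and 0.348 in CTRL replicate 1 and 0.203 in Isl1_hypo replicate 3, so it varied within the groups far more than between them. This pairing was noticed in the values and was not tested.

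Eya2 was at the limit of detection. It had 8, 3, 0 and 0 counts in CTRL and 4, 0, 0 and 1 in Isl1_hypo, and a count of 0 allows up to 3 reads, or between 0.0641 and 0.163 CPM over the 8 libraries. Its 3 annotated transcripts held identical counts. That limit covers counting error only. Eya3, the most widely expressed Eya gene and not a member of the set, was the most abundant of the family and the steadiest between embryos. It was at 30.3 ± 2.33 CPM in CTRL and 33.6 ± 2.30 CPM in Isl1_hypo (SD, n = 4 each), and its log2 fold change was 0.15 (SE 0.119, 95% interval −0.11 to 0.41, adjusted p = 0.649).

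**Figure D2:**
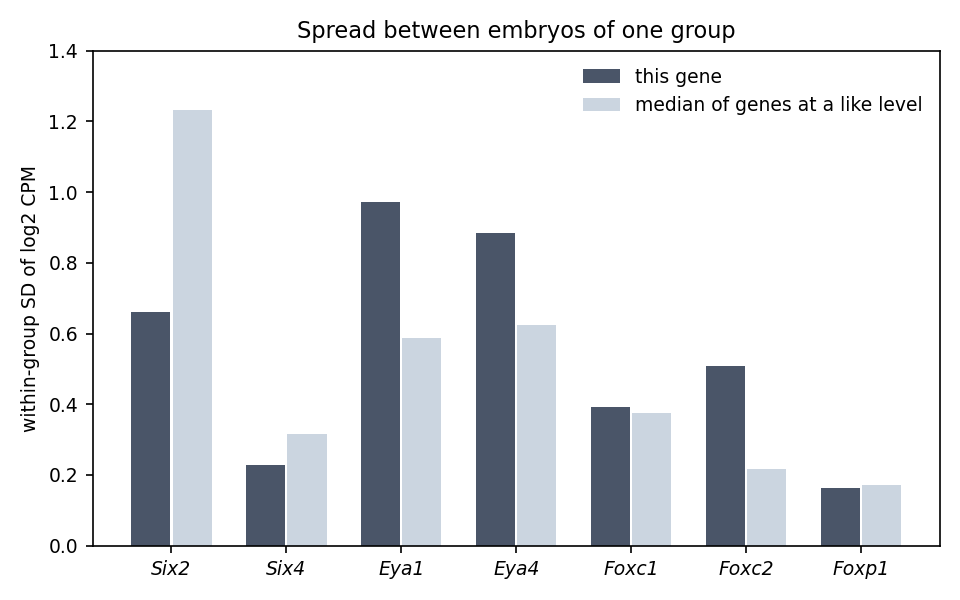
Within-group SD of log2 CPM for each of the 7 tested members (dark bars) and the median SD of genes whose mean level lay within 0.5 log2 units of it (light bars). Eya1, Eya4 and Foxc2 stand above the light bar beside them, at 0.971, 0.886 and 0.508, and Six2 and Six4 stand below it. Foxc1 is slightly above its light bar (0.392 against 0.374) and Foxp1 slightly below (0.164 against 0.173).

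Of the other genes of the network, taken as a list of 7 that held other sine oculis, Eya and Dach genes and Sobp, 5 were tested and none passed an unadjusted p of 0.05 in either direction, where 11.9% of all genes passed. The fold change was below 0 in 4 and above 0 in 1, where 49.1% of all genes were below 0, and the median was −0.32. Dach1, the co-repressor with the highest level of the Dach genes, was at 13.95 ± 2.77 CPM in CTRL and 12.3 ± 2.17 CPM in Isl1_hypo (SD, n = 4 each). Its log2 fold change was −0.18 (SE 0.194, adjusted p = 0.739). It was −0.07 without CTRL replicate 2, −0.11 without Isl1_hypo replicate 1 or 3, −0.28 without CTRL replicate 1 and −0.29 without Isl1_hypo replicate 4. Six5, a relative of Six4 expressed in many tissues, ran from 9.71 to 16.1 CPM in CTRL and from 3.22 to 13.6 CPM in Isl1_hypo, where replicate 3 was the low library. Its log2 fold change was −0.45 (SE 0.348, adjusted p = 0.635), and it was −0.17 without Isl1_hypo replicate 3, −0.29 without CTRL replicate 1, −0.73 without Isl1_hypo replicate 2 and −0.15 under limma-voom. Dach2 and Sobp had fold changes of −0.72 and −0.32 with adjusted p of 0.775 and 0.677.

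Among the forkhead members, Foxc2 had a wide spread. In edgeR with all 8 libraries it also had the largest estimated difference of the 7 tested genes of the set. Foxc2 lies on chromosome 8 from 123640071 to 123642792 and was at 37.2, 23.2, 54.2 and 44.1 CPM in CTRL, a mean of 39.7 ± 13.0 (SD, n = 4), and at 35.0, 43.4, 19.4 and 28.2 CPM in Isl1_hypo, a mean of 31.5 ± 10.2 (SD, n = 4). The second-highest CTRL library and the highest Isl1_hypo library lay within 1 CPM of each other, and CTRL replicate 2 was below 3 of the Isl1_hypo libraries. For Foxc2 the log2 fold change was −0.34 (SE 0.275, 95% interval −0.94 to 0.27, adjusted p = 0.655). With 614 to 2184 reads in a library, counting error is small for this gene, yet its within-group SD of 0.508 compared with a median of 0.218 at a like level, and 97.2% of those genes had a smaller SD. The smallest unadjusted p of any member under any alternative, 0.0592, was that of Foxc2 without CTRL replicate 2, where the fold change was −0.52 (adjusted p = 0.557). Under limma-voom with sample quality weights the Foxc2 fold change was −0.12. It was −0.15 without CTRL replicate 3, −0.16 without Isl1_hypo replicate 3 and −0.54 without Isl1_hypo replicate 2. The ranking of the members changed with such settings. Six4 was further from 0 than Foxc2 under limma-voom, at −0.25, and without CTRL or Isl1_hypo replicate 3, at −0.24 and −0.18.

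Foxc1, the close relative of Foxc2, gave no such estimate. It lies on chromosome 13 from 31898515 to 31902504 and was at 4.96, 8.49, 6.38 and 7.12 CPM in CTRL and at 8.20, 4.61, 4.74 and 7.96 CPM in Isl1_hypo. In Isl1_hypo, replicates 1 and 4 stood near the top of the CTRL range and replicates 2 and 3 below it. The log2 fold change was −0.08 (SE 0.271, 95% interval −0.68 to 0.51, adjusted p = 0.930). The count of Foxc2 was 2.73 to 8.50 times that of Foxc1 in CTRL and 3.54 to 9.41 times in Isl1_hypo, and the groups overlapped.

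Foxf1 was detected in most libraries with only a few reads. Its counts were 1, 13, 1 and 2 in CTRL and 10, 6, 0 and 6 in Isl1_hypo, and it was not tested. Without the filter the log2 fold change was 1.15 with an interval from −1.73 to 4.03, which does not settle its direction. Foxf1 (named Foxf1a in the mm9 annotation), Foxc2 and Foxl1 stand in that order on chromosome 8, at 123608286 to 123610851, 123640071 to 123642792 and 123651840 to 123652929, all on the plus strand and all inside the annotated read-through locus Gm20388. Foxq1, Foxf2 and Foxc1 form the matching cluster on chromosome 13. The neighbours thus differed greatly in level, with at least 614 reads of Foxc2 in each library and at most 13 of Foxf1. Foxl1, a mesenchymal forkhead factor, had 1.89, 1.72, 2.31 and 1.58 CPM in CTRL and 0.923, 1.54, 0.632 and 1.11 CPM in Isl1_hypo, with no overlap of the groups at −0.83 on the log2 scale (SE 0.436, adjusted p = 0.484). Foxf2, below the filter, had 9, 17, 6 and 21 counts in CTRL and 0, 0, 0 and 8 in Isl1_hypo.

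Foxp1 was measured with the greatest precision of the set. Foxp1, on chromosome 6 from 98875332 to 99216526, was at 172, 142, 130 and 137 CPM in CTRL, a mean of 145 ± 18.3 (SD, n = 4), and at 127, 144, 120 and 150 CPM in Isl1_hypo, a mean of 135 ± 14.3 (SD, n = 4). The CTRL and Isl1_hypo libraries were interleaved, with CTRL replicate 1 the highest and Isl1_hypo replicate 3 the lowest. The log2 fold change was −0.10 (SE 0.118, 95% interval −0.36 to 0.15, adjusted p = 0.759), and it was −0.02 both without CTRL replicate 1 and under limma-voom, −0.05 without Isl1_hypo replicate 3 and −0.16 without CTRL replicate 3 or Isl1_hypo replicate 4. Foxp1 was the only member whose whole interval lay within 0.58 log2 units of 0, as did that of 46.8% of all genes tested. Its 4 annotated transcripts share nearly all of their reads, and the counts of the other 3 were between 98.3% and 100% of those of the transcript used. Reads of Foxp1 and of Eif4e3, which overlaps it on the same strand, could not be separated where their exons coincide.

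The other Foxp genes gave unlike values. Foxp2, a repressor of the same subfamily, was at 41.1, 30.8, 26.3 and 28.9 CPM in CTRL, a mean of 31.8 ± 6.48 (SD, n = 4), and at 22.2, 18.4, 13.5 and 13.6 CPM in Isl1_hypo, a mean of 16.9 ± 4.18 (SD, n = 4). Every Isl1_hypo library was below every CTRL library. The log2 fold change of Foxp2 was −0.91 (SE 0.1997, 95% interval −1.35 to −0.47), with an unadjusted p of 0.000743 that did not pass after adjustment over all genes (adjusted p = 0.101). DESeq2 gave an adjusted p of 0.00261 for the same gene, and over the 18 alternatives the adjusted p ran from 0.00261 to 0.235. Foxp4 was at 15.4, 22.0, 14.1 and 19.1 CPM in CTRL and 12.2, 10.9, 7.43 and 14.5 CPM in Isl1_hypo, where only replicate 4 reached into the CTRL range, and its log2 fold change was −0.65 (SE 0.223, adjusted p = 0.299). Foxp3 was at 13.2 ± 0.779 CPM in CTRL and 13.1 ± 1.20 CPM in Isl1_hypo (SD, n = 4 each), with a fold change of −0.01 (SE 0.148) whose sign changed under limma-voom and without CTRL replicate 2 or Isl1_hypo replicate 3. Foxp3 overlaps Ppp1r3f and Ccdc22 on the opposite strand and 4930524L23Rik on its own, and reads of these genes cannot be separated from its own where exons coincide.

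**Figure D3:**
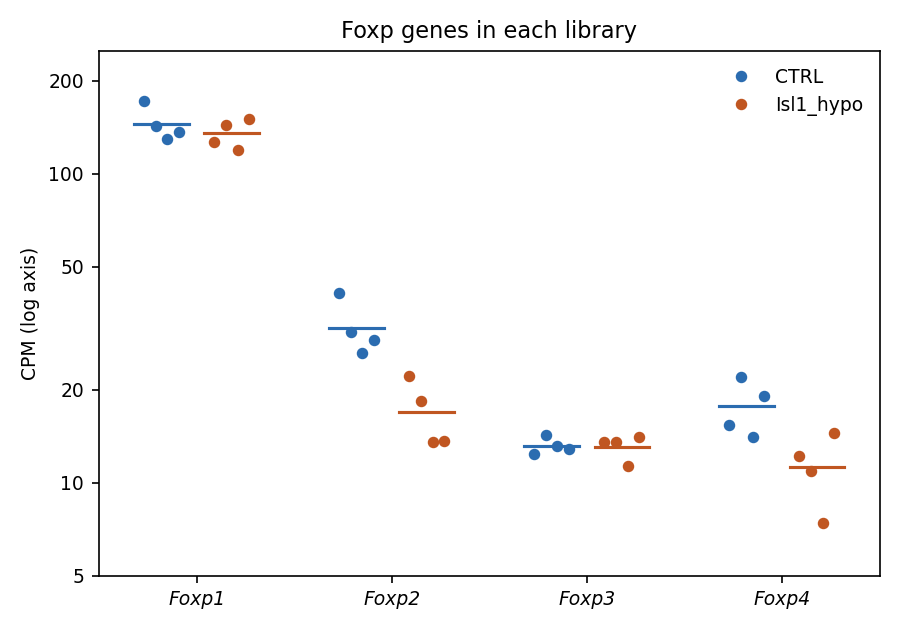
CPM of the 4 Foxp genes in each library, on a log axis, with group means as short lines. The Foxp2 libraries of Isl1_hypo lie between 13.5 and 22.2 CPM, below all 4 CTRL libraries, while those of Foxp1 and Foxp3 are interleaved.

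The count of Foxp1 relative to Foxp2 within a library was 4.18, 4.62, 4.94 and 4.73 in CTRL and 5.70, 7.83, 8.84 and 11.01 in Isl1_hypo. This ratio does not depend on library scaling, and it was higher in all 4 Isl1_hypo libraries than in any CTRL library. It was chosen after the Foxp2 values were seen and is given as a description. The ratio of Foxp1 to Foxp4 overlapped, from 6.46 to 11.1 in CTRL and from 10.3 to 16.1 in Isl1_hypo.

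Of 39 further forkhead genes, 16 had enough counts to be tested. By an unadjusted p of 0.05, 2 were lower in Isl1_hypo, Foxp2 and Foxp4, and none was higher, where 6.17% of all genes passed in the lower and 5.69% in the higher direction. None passed after adjustment. The median fold change of the 16 was −0.13, with 10 below 0 and 6 above 0. The fold changes ran from −0.91 for Foxp2 to 0.30 for Foxn2, and they included −0.79 for Foxo3 (unadjusted p = 0.0987) and −0.39 for Foxk1 (unadjusted p = 0.0667), by edgeR. Foxa2, a marker of endoderm, had at most 5 reads in any library, and Foxd3, a factor of early neural crest, had at most 1.

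**Figure D4:**
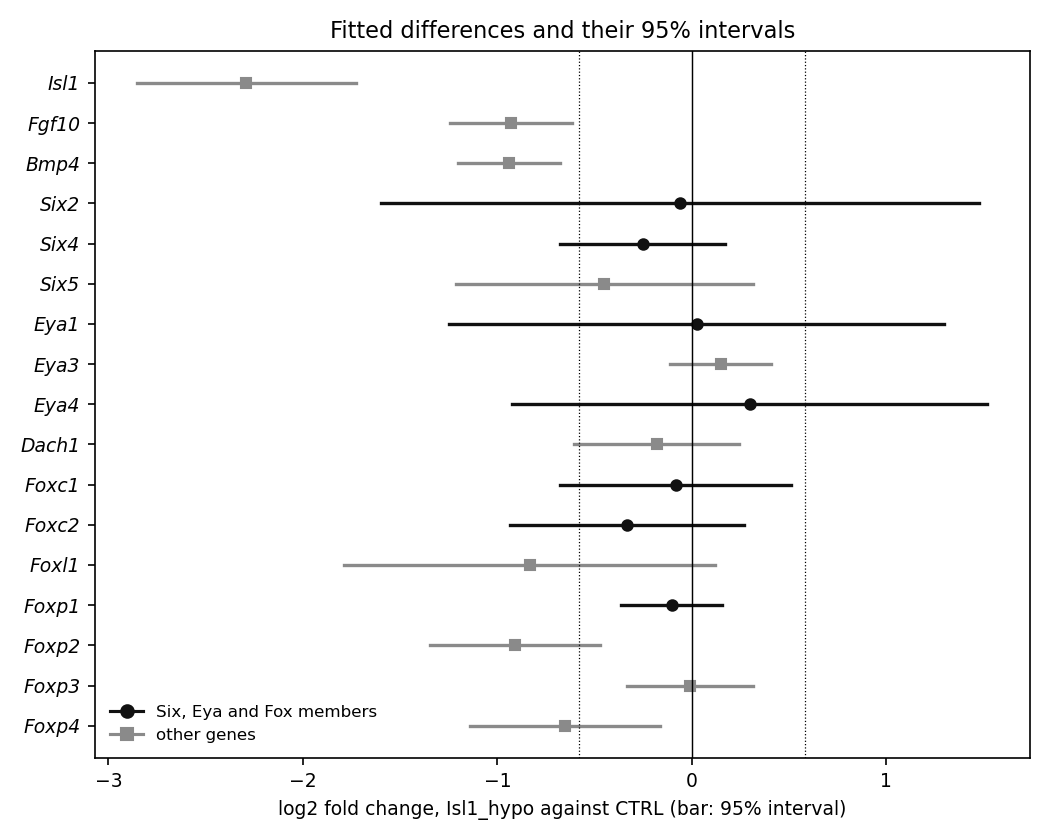
Log2 fold change of Isl1_hypo against CTRL with its 95% interval for the 7 tested members (black circles) and for related genes (grey squares). Dotted lines mark 0.58 on either side of 0. The intervals of all 7 members include 0, and that of Foxp1 lies between the dotted lines, while Isl1, Fgf10, Bmp4, Foxp2 and Foxp4 lie below 0 with their whole intervals.

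Other genes of the same field were read from a list of 19 linked to the second heart field, which includes Isl1, the mutated gene, and was chosen with earlier results of these libraries known, so its counts are a description. Of the 19, 17 were tested, 12 had fold changes below 0 and 5 above 0, and the median was −0.23. In this list 3 genes passed the adjusted test, all lower in Isl1_hypo, where 0.269% of all genes passed in either direction. At an unadjusted p of 0.05, 6 were lower and none higher, against 6.17% and 5.69% of all genes. Fgf10, a growth factor made by the heart field mesoderm, was at 25.5 ± 0.494 CPM in CTRL and 13.4 ± 1.95 CPM in Isl1_hypo (SD, n = 4 each; log2 fold change −0.93, SE 0.143, adjusted p = 0.0310). Bmp4, a ligand needed for outflow tract cushions and septation, was at 227 ± 16.4 CPM in CTRL and 118 ± 16.8 CPM in Isl1_hypo (SD, n = 4 each; log2 fold change −0.94, SE 0.120, adjusted p = 0.0172). Fgf10 no longer passed when any library other than Isl1_hypo replicate 3 was left out (adjusted p up to 0.105), and Bmp4 no longer passed without CTRL replicate 2 or 3 (up to 0.0733). With the replicate number as a block in edgeR none of the 3 passed, at adjusted p of 0.106 for Fgf10, 0.0763 for Bmp4 and 0.0722 for Isl1. Tbx20, Wnt5a and Mef2c had fold changes of −0.44, −0.42 and −0.23 and did not pass after adjustment. Fgf8 and Tbx1, genes that act with Eya1 in the pharyngeal region, were at most 2.02 and 1.99 CPM in any library. Their fold changes were −2.03 (SE 0.966) and −1.06 (SE 0.929), and the smallest adjusted p of either was 0.337 under the alternatives that tested them, which leaves out that of 10 counts in every library. Tbx1 was at −0.38 without CTRL replicate 3 and −0.63 without Isl1_hypo replicate 3. The highest value of the list was 0.86 for Aldh1a2 (SE 0.516), a retinoic acid synthesis gene that the epicardial list also holds. Shh had no read in any library.

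The tissue label was checked against defining genes. The summed level of 9 myocardial markers was between 39465 and 48871 CPM in CTRL and between 41216 and 49904 CPM in Isl1_hypo (exact permutation p = 0.943), and Actc1 alone made up 21021 CPM of the CTRL mean of 45278. Of the 9 genes 3 were lower in Isl1_hypo at an unadjusted p of 0.05, Ttn at −0.90, Myh7 at −0.49 and Myh6 at −0.31 on the log2 scale, with no overlap of the groups for Ttn and Myh7, and none passed after adjustment. Over all genes 6.17% were lower at that p and 8.5% were free of overlap. The summed levels of several marker lists of neighbouring tissues were higher in Isl1_hypo without overlap. Whether these lists marked separate tissues here was not tested. The sum of 5 epicardial markers was 40.9 to 290 CPM in CTRL and 359 to 646 CPM in Isl1_hypo, with 5 of 5 genes above 0 and 4 of them past an unadjusted p of 0.05, where 5.69% of all genes were higher at that p. The sum of 11 epithelial markers was 94.8 to 172 CPM in CTRL and 179 to 382 CPM in Isl1_hypo. Krt8, Krt18 and Krt19 made up most of it, while the pharyngeal genes Pax1, Pax9, Foxa2 and Shh were at or near 0. In Isl1_hypo replicate 1, Cldn6 and Cdh1 reached 708 and 282 reads, and the other libraries had at most 8 and 9. Both sums were free of overlap between the groups, at an exact two-sided permutation p of 0.0286, the smallest that 4 against 4 libraries allow, and at 0.0952 after adjustment over 10 lists.

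Of 5 markers of pharyngeal muscle progenitors, 1 was tested, Tcf21, which the epicardium also expresses, and the list summed to 13.3 to 51.9 CPM in CTRL and 52.5 to 69.3 CPM in Isl1_hypo, with the same exact permutation p of 0.0286 and adjusted p of 0.0952. The defining genes Msc, Myf5 and Myod1 had at most 11 reads in any library. Blood markers summed to 2012 to 11851 CPM in CTRL and 11841 to 25540 CPM in Isl1_hypo (exact permutation p = 0.0571). All 7 blood genes were higher at an unadjusted p of 0.05, against the same 5.69% of all genes, with a median of 1.85 on the log2 scale, and none passed after adjustment. Hba-a1 and Hba-a2 held identical counts, so their reads enter this count and sum more than once. Mesenchymal markers ran from 1564 to 2548 CPM in CTRL and from 950 to 2609 CPM in Isl1_hypo, highest in replicate 1 of both groups. The markers of neural crest, endothelium, liver or yolk sac and neural tissue had sums with exact p between 0.0857 and 0.657 that overlapped. Of the 7 endothelial genes 4 had fold changes below 0 and 3 above 0 (Emcn at 0.23, Npr3 at 0.28 and Nfatc1 at 0.36, none past an unadjusted p of 0.05), and of the 5 tested neural crest genes 4 were below 0 and 1 above 0. Of the 7 mesenchymal genes 6 were below 0 and 1 above 0, and of the 3 tested neural genes 2 were below 0 and 1 above 0. Within these lists, Pecam1 at −0.58, Cdh5 at −0.54 and Dlx2 at −1.37 were lower at an unadjusted p of 0.05. The groups did not overlap for these genes. Over all genes tested, 6.17% were lower at that p and 8.5% were free of overlap in either direction. Tfap2b of the neural crest list, below the filter, was higher without overlap, at means of 0.0674 CPM in CTRL and 0.404 CPM in Isl1_hypo. Stmn2 of the neural list and Twist1 and Sox9 of the mesenchymal list were lower at that p with overlap, at −0.61, −0.57 and −0.38, and none of the 6 tested genes named here passed after adjustment. The part of any of these tissues in the values of the sine oculis, Eya and Fox genes was not tested.

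For each tested member the genes with the most similar profile over the 8 libraries were taken by the root mean square difference of centred log2 CPM. This difference grows with the spread of the member itself, so it does not rank the members. Foxp1 lay nearest to Vps13d and Cars2 at 0.0691 and 0.0774, and Six4 nearest to Rgs2 and Errfi1 at 0.0773 and 0.0847. Foxc1 lay nearest to Fam26e and Ano8 at 0.129 and 0.151, and Foxc2 nearest to Mid1 and Tcp11l1 at 0.161 and 0.194. For Eya1 the nearest were Matn3 and Xylt1 at 0.371 and 0.412, for Eya4 Hint2 and Mfsd7b at 0.357 and 0.392, and for Six2 Mt1 and Fam217a at 0.286 and 0.287. No member was among the nearest genes of another member, but only the 2 nearest were kept for each. Six2, with a mean below 1 CPM, and Foxp1, with an SD of 0.162, could not be named for another member. This absence therefore does not show that the members varied apart. The profiles share libraries and scaling, and such neighbours are found among 8642 or more genes for any profile, so they describe these 8 libraries only.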

How the data were processed

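Outflow tract and right ventricle RNA of 8 single E10.5 embryos was sequenced on the BGISEQ-500, from 100 ng of total RNA each. According to the study's methods and the submitters' processing notes, the authors aligned reads with STAR to mm9 and counted exon reads per RefSeq transcript with HOMER on both strands. The deposited counts are whole numbers without normalization. The deposited RPKM values come from the authors' use of edgeR on the same counts and served only to compare levels between genes. Columns of the authors' own DESeq2 comparison (base mean, log2 fold change, standard error, statistic, p and adjusted p) were not used. Because strand was ignored, overlapping genes cannot be separated.

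Of 31507 transcripts, the 1 with the highest mean count stood for each symbol. Genes passing filterByExpr (13769) were scaled by TMM and tested with edgeR 4.0.16 (limma 3.58.1, R 4.3.3) by the quasi-likelihood test, with Benjamini-Hochberg adjustment over all of them. Only CTRL and Isl1_hypo entered the fit, without covariates. The SE was the fold change divided by the root of F, and 95% intervals used the t quantile of the total degrees of freedom. The common dispersion of 0.0699 gives a coefficient of variation of 26.4% between embryos. Marker sums and transcript ratios were compared by two-sided exact permutation tests over 70 assignments. Log2 CPM used a prior count of 2. Similar genes were the 2 nearest of those with a mean of at least 1 CPM and an SD of at least 0.2, or that of the member where smaller. Coordinates are from GENCODE vM1 on mm9. Scripts were tested on simulated counts.

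The genes named are the 9 members, Isl1, genes of the family, heart field and marker lists, and the similar genes. Some list genes are not reported here and were left out of the lists. The members and lists were chosen with earlier results of these data known. Alternatives were RLE, upper quartile or no scaling, DESeq2 1.42.0, limma-voom with sample quality weights, other count filters, the longest transcript, removal of globin genes, a replicate block and leaving out each library.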

Additional observations from a re-analysis of the deposited data

Results flagged for a closer look

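In groups of 4 libraries, a library was singled out where its gap to the nearest other library, as a share of the group's range, exceeded Dixon's 95% critical value. This was examined in 44 groups, the 7 tested members, Isl1, Eya3, Foxp2, Foxp3 and Foxp4 and the 10 marker sums in each genotype, and chance alone singles out about 1 in 20, or 2.2 groups. No member and none of the other 5 genes was singled out in either group, Eya1, Eya4 and Foxc2 with their wide spreads included. There were 3 marker sums with a distant library. The neural crest sum of Isl1_hypo replicate 2 was 6.399 on the log2 CPM scale, where the other 3 Isl1_hypo libraries were between 5.96 and 6.00. The epithelial sum of CTRL replicate 1 was 6.57, below the 7.38 to 7.43 of the other CTRL libraries. The epicardial sum of Isl1_hypo replicate 3 was 9.34, above the 8.49 to 8.62 of the other Isl1_hypo libraries.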

How the results depend on the processing

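No member passed an adjusted or an unadjusted p of 0.05 under any of the 18 alternatives. Of 125 member values, 111 kept their direction and 14 reversed. The log2 fold change of Six2 was 0.21 under limma-voom, 0.081 with the replicate block and from −0.37 to 0.34 with a library left out (above 0 without CTRL replicate 4 or Isl1_hypo replicate 2). Eya1 was at −0.0002 on total counts and from −0.32 to 0.47 with a library left out (below 0 without replicate 1 or 4 of either group). Eya4 was at −0.0021 under limma-voom and from −0.22 to 0.58 with a library left out (below 0 without Isl1_hypo replicate 3). With a library left out Foxc1 ran from −0.23 to 0.047 (above 0 without CTRL replicate 2 or Isl1_hypo replicate 2 or 3) and Foxp3 from −0.0451 to 0.0546 (0.0196 under limma-voom). Six2 was not tested where 10 counts were required in every library.

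The number of genes past the adjusted test over all genes was 37, and it was 319 with DESeq2, 134 with limma-voom, 0 with the replicate block and 4 to 48 with a library left out (8, 5 and 4 without CTRL replicates 1, 2 and 3, and 12 and 11 without Isl1_hypo replicates 2 and 4). With the replicate block, in edgeR, 700 genes were higher and 882 lower at an unadjusted p under 0.05. DESeq2 called 1 of the other family genes, Foxp2. The other family genes with an unadjusted p under 0.05 numbered 2 to 4 (4 without Isl1_hypo replicate 2) and the called heart field genes 1 to 3 (1 without CTRL replicate 2 or 3) with a library left out, and 0 heart field genes were called with the block, where Isl1 had an adjusted p of 0.0722. The non-overlapping marker lists numbered 3, and 3 to 5 with a library left out (5 without Isl1_hypo replicate 1 or 2). Among 6 transcript pairs of Eya1, Eya4 and Foxp1, none had an exact p under 0.05 (0.143 to 0.714), and 0 to 1 with a library left out (a Foxp1 pair without Isl1_hypo replicate 1, p = 0.0286 by the exact permutation test). Of 14 most similar genes, 10 were named again with a prior count of 0.5.

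No pairing of embryos by replicate number was seen: deviations of same-numbered libraries correlated at 0.0189, −0.0209, 0.0130 and 0.0219 over all genes tested. A shared factor that acts on few genes could be missed by these correlations. Six2, Eya2 and Foxf1 had few reads, and Eya1, Eya4 and Foxc2 had a wider spread between embryos than the median gene of a like level. The parts of depth and of spread in the width of the intervals were not tested.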
